A study of Bos taurus with 8 samples.

Results

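The genes described here copy DNA: the MCM helicase and the proteins that load it, the GINS complex and CDC45, the polymerases with their clamp, clamp loader, flap nuclease and ligase, the enzymes that supply nucleotides, the chromatin assembly factor, and the cyclin E and E2F genes that drive entry into S phase, in dividing cells and in cells that endocycle. The list holds 42 genes. A gene was a member when a non-control probe carried its name in the scanner files, or carried an accession that RefSeq pairs with that name, and where several probes named it, the brightest by its mean of the 8 arrays was used. By that rule 40 of the 42 had a probe, among 16300 named genes, and all 40 were tested among 12899 genes. MCM2 and E2F7 had none by the rule. 3 probes carry the name of MCM2 only in the files' description column, and they are given separately.

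Replication starts when the origin recognition complex, CDC6 and CDT1 load the MCM ring onto DNA, and geminin blocks further loading by binding CDT1. Cyclin E with CDK2 helps to switch the loaded helicase on, together with GINS and CDC45. The E2F factors induce both the cyclins and most of the replication genes. In an endocycle the DNA is copied again without mitosis in between, and the placental trophoblast is a tissue known for such cells. In ruminants, trophoblast cells with a pair of nuclei and extra DNA cross from the fetal cotyledon into the maternal side of the placenta.

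The study put 8 RNA samples on a 1-colour Agilent bovine array, 4 labelled pregnant and 4 labelled non-pregnant. All 8 are labelled as fetal cotyledon, which is the part of the ruminant placentome made by the fetus, and as female. The labels describe the non-pregnant group as a state before pregnancy and the pregnant group as a state after it, yet the protocol shared by all samples says that gravid uteri of pregnant buffalo came from an abattoir, while the organism is given as Bos taurus. The labels give no age, stage of gestation, breed or treatment, and none of them ties a replicate to an animal of its own, so p-values here reflect the spread among these 8 samples alone, which may be technical. RNA was column-purified with DNase and primed with oligo-dT before Cy3 labelling.

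Each value below is a log2 signal relative to the 75th percentile of its own array, so that 0 is the signal of that percentile. Before scaling, the percentile stood at an intensity of 1168 to 1797 under the non-pregnant label and 798 to 1347 under the pregnant label, and the number of arrays limits the precision. All 8 arrays shared 1 slide and 1 scan, with the group labelled non-pregnant in the slide's row 1 and the group labelled pregnant in row 2, so slide row and group cannot be told apart. Over tested probes, arrays correlated at 0.957 to 0.987 within the non-pregnant label, 0.943 to 0.989 within the pregnant label and 0.736 to 0.783 between them, and array 4 labelled pregnant stood apart from the other 3 of its group (at most 0.951, against at least 0.977 among those 3). The markers of placenta went against the labels. Of 14 trophoblast markers, 13 were lower on the arrays labelled pregnant, with a median difference of -9.06, a summed linear level of 26.9 to 42.1 against 1139 to 1810 times the percentile signal, and CDX2, PLAC1 and CYP11A1 well above background on none of them. Of 6 endometrial markers, 5 were higher there (summed level 89.4 to 195 against 0.677 to 2.73), and ESR1 and HOXD10 were well above background on no array labelled non-pregnant. All 6 erythroid markers were lower (0.616 to 2.86 against 337 to 604), as were 2 of 9 leukocyte markers, of which 6 were higher. Fibroblast markers were higher for 4 of 5, smooth muscle markers for 3 of 5, and endothelial markers were higher for 2 and lower for 2 of 5. The arrays are therefore called by their labels throughout. The part of these cell type differences in the results below was not tested, and in bulk tissue fewer cells of a type and less RNA per cell cannot be told apart.

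Most replication genes were lower on the arrays labelled pregnant. Of the 40 members, 35 fell, 1 rose and 4 did not pass the test (limma, Benjamini-Hochberg adjusted p below 0.05 over all tested probes). Among all 12899 genes tested, 33.0% were called lower, 29.7% higher and 62.7% either way. A rise of at least 2-fold was called for no member (23.7% of all genes). A fall of at least 2-fold was called for 29 members (24.3% of all genes) and of at least 4-fold for 15 (11.9% of all genes). The median difference, labelled pregnant minus labelled non-pregnant, was -1.75 over the members and -0.03 over all genes, and it was -1.72 when 3 members with no signal above background on one side were set at their bounds. Measured differences ranged from -6.77 for RRM2, the small subunit of ribonucleotide reductase, to 0.90 for GMNN, geminin. For 36 members every array labelled pregnant lay below every array labelled non-pregnant (32.1% of all genes), and for none the reverse (28.2%). Within their groups the arrays stood close together, with a member median of 2.08, 2.03, 2.07 and 1.99 on non-pregnant arrays 1 to 4 and 0.54, 0.33, 0.37 and 0.47 on pregnant arrays 1 to 4. All 40 members were well above background on every array labelled non-pregnant and 33 on all 8 arrays. Since the filter asks for 4 of 8 arrays, members dim under the pregnant label, CDC6, ORC1 and POLE among them, were tested only through the group in which they are high. With probes required on all 8 arrays, 34 members were tested, of which 30 fell and 1 rose, and 33.5% of 10930 genes were called lower. Array 4 labelled pregnant was the highest of its group for 5 of the 40 members (32.5% of all genes), and leaving it out gave 36 members lower.

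**Figure D1:**
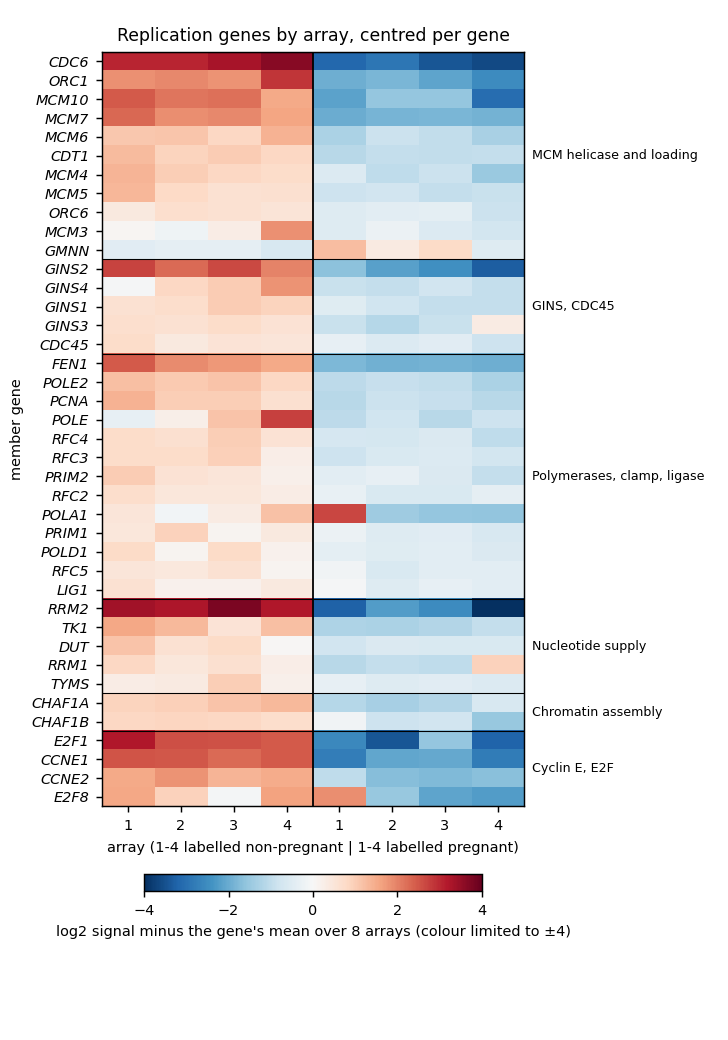
Signal of each of the 40 members (rows, ordered by role and then by difference) on each of the 8 arrays (columns), as log2 signal minus that gene's mean over the arrays, with colours limited to 4 either way. The 4 columns labelled non-pregnant are redder than the 4 labelled pregnant for most genes, GMNN is the reverse, and single pregnant arrays stand out for POLA1, E2F8, RRM1 and GINS3.

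Genes of helicase loading and the helicase ring itself had measured differences of -6.53 to 0.90. Of 11 measured, 9 fell, GMNN rose and MCM3 did not pass the test, with a median of -2.0. The widest gap was that of CDC6, the ATPase that brings the MCM ring to the origin. CDC6 read -1.31, -1.29, -1.06 and -0.70 under the non-pregnant label and was not well above background on any array labelled pregnant. It was at least 41.2-fold lower there (adjusted p of the fit 1.88e-07). For each array of the dim group, the bound takes the lowest signal that counted as above background, or the measured value where that was higher. The mean of these is set against the measured mean of the bright group. For CDC6, ORC1, POLE and every other probe well above background on no array labelled pregnant, the p-value sets signal against values near the floor. Such a p-value adds nothing to the bound. ORC1, an ATPase of the origin recognition complex, was likewise well above background on no array labelled pregnant. ORC1 read -3.63, -3.56, -3.66 and -2.63 under the non-pregnant label, and it was at least 8.49-fold lower on those labelled pregnant (adjusted p 4.04e-06). ORC6, the smallest subunit of the complex, fell much less, by 1.1 (SE 0.18, adjusted p 8.07e-04), and all its 3 probes were called lower. CDT1, the CDC6 partner that geminin inhibits, read 2.76, 2.39, 2.50 and 2.32 against 0.39, 0.53, 0.52 and 0.54, a difference of -2.0 (SE 0.17, adjusted p 1.50e-05). The groups do not overlap for any of these 4 genes.

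ORC1 was read by a probe that joins distant pieces of sequence, mapped by the array files to chr3:100741857-100742883 on the plus strand of build Btau_3.1, a span of 1027 bases for a probe of 60. It is printed because it is the only probe behind the ORC1 value, and it has no capitals.
ORC1: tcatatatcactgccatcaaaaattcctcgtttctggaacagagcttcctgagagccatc

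Measured subunits of the MCM ring, the helicase that unwinds DNA, had differences between -3.81 and -1.02. MCM7 read 7.83, 7.39, 7.46 and 7.11 under the non-pregnant label and 3.54, 3.68, 3.71 and 3.64 under the pregnant label. Its difference was -3.81 (SE 0.19, adjusted p 9.82e-07), with every pregnant array well below every non-pregnant array and close to the others of its group. MCM4 read 5.18, 4.83, 4.66 and 4.55 against 3.28, 2.83, 2.99 and 2.34, a difference of -1.95 (SE 0.25, adjusted p 1.61e-04). Of its 5 probes, 4 were called lower, some of which overlap by 24 to 49 bases. The remaining probe stood at -0.67 (SE 0.52, adjusted p 0.294). MCM5 fell by 1.70 (SE 0.20) and MCM6 by 2.20 (SE 0.19), again without overlap. MCM3 read -2.77, -3.03, -2.55 and -1.02 against -3.39, -3.10, -3.39 and -3.59, and its difference of -1.02 (SE 0.41) did not pass (adjusted p 0.0569). Its groups do not overlap, but array 4 labelled non-pregnant lies far above the rest, and without that array the difference was -0.58 (adjusted p 0.0384). A further probe, named MCM3 in the files, is described there as another gene and maps to chromosome 9, while the others map to chromosome 23. It fell by 4.45, and whether it reads MCM3 is unsettled. The brightest of the 3 probes described as MCM2 fell by 1.61 (SE 0.23, adjusted p 3.24e-04), and the other two did not pass, at -1.17 and, well above background on no array labelled pregnant, -0.65. MCM10, which joins the helicase to the polymerase at the start of synthesis, read 1.0, 0.67, 0.75 and 0.047 against -3.59, -3.00, -3.02 and -4.50. The difference was -4.14 (SE 0.37, adjusted p 1.88e-05), and no arrays of the groups overlapped.

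GMNN, the inhibitor of CDT1, was the exception among the members. It read 3.83, 3.91, 3.91 and 3.64 under the non-pregnant label, against 5.50, 4.62, 5.03 and 3.75. Arrays 1 to 3 labelled pregnant lay above all 4 labelled non-pregnant, and array 4 lay among them. The difference of 0.90 (SE 0.34) just passed (adjusted p 0.0482). It did not pass when any of the 4 arrays labelled non-pregnant or array 1, 2 or 3 labelled pregnant was left out (adjusted p 0.0778 to 0.117), and it rose to 1.23 (adjusted p 0.00238) without array 4 labelled pregnant. With arrays scaled to their median, or not scaled, GMNN stood at 0.51 or 0.42 and did not pass (adjusted p 0.244 and 0.234). Over 19 alternative settings its value ran from 0.42 to 1.40 and its adjusted p from 0.00238 to 0.244.

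Its other probe showed the same pattern over arrays, 2.05, 2.0, 1.96 and 1.44 against 3.45, 2.51, 2.95 and 1.82, with a difference of 0.82 (SE 0.34) that did not pass (adjusted p 0.0656). Both lie on the minus strand of chromosome 23 of Btau_3.1, the brighter at chr23:33120244-33120303 and the other at chr23:33120117-33120176, and whether they are coding or untranslated was not determined here. The first 30 bases of each are shown, since these separate sequences gave differences within their standard errors of each other for the only member that rose.
GMNN, brighter probe: aactgccaaagtttacctccgctgtagttc
GMNN, other probe: tgtgtttttaatctatggtgttctgtgtaa

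**Figure D2:**
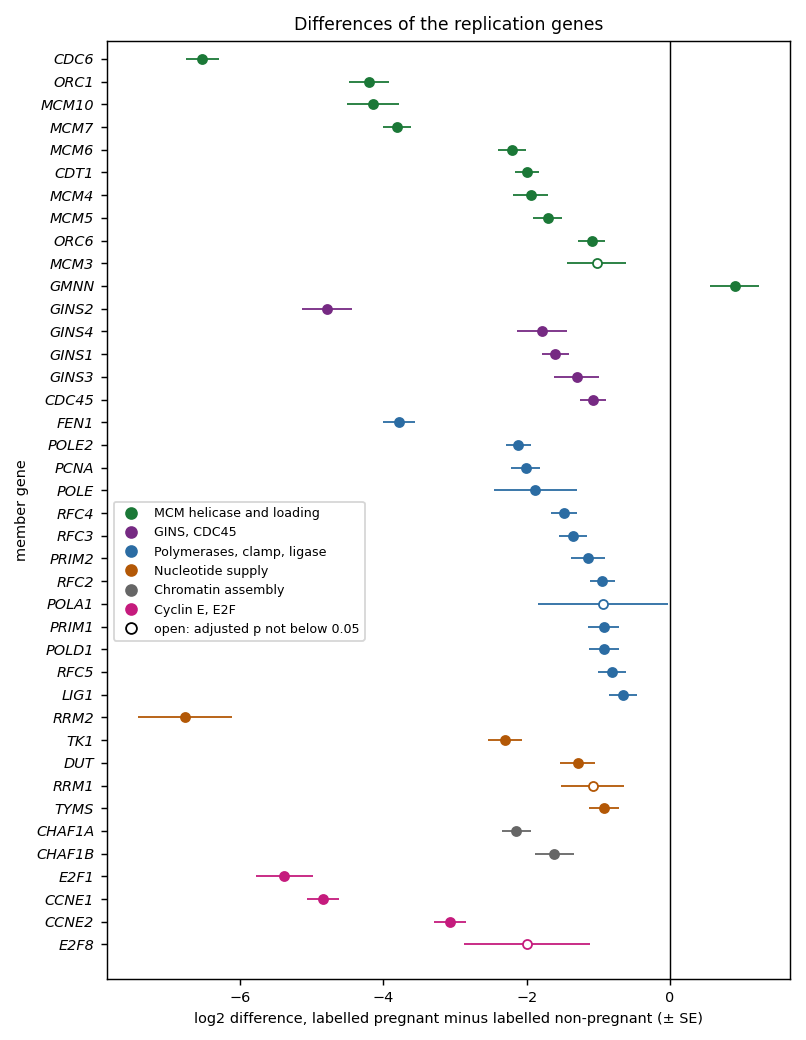
Difference of each member (labelled pregnant minus labelled non-pregnant, log2) with its standard error, coloured by role; filled points passed the test and open points did not. Values run from -6.77 for RRM2 to 0.90 for GMNN, the open points are MCM3, POLA1, RRM1 and E2F8, and CDC6, ORC1 and POLE are drawn at their measured difference although no array labelled pregnant was above background.

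All 5 genes of the active helicase's GINS ring and CDC45 fell, with a median of -1.60. GINS2, a subunit of that ring, had the largest difference of the 5. GINS2 read 0.19, -0.27, 0.12 and -0.55 under the non-pregnant label and -4.15, -4.70, -4.97 and -5.83 under the pregnant label, of which 3 were well above background. Its difference was -4.79 (SE 0.35, adjusted p 6.69e-06), and no arrays overlapped. GINS1 fell by 1.60 (SE 0.19), GINS4 by 1.79 (SE 0.35) and CDC45, which completes the helicase, by 1.07 (SE 0.18). GINS3 read 0.066, 0.0018, 0.13 and -0.019 against -1.50, -1.76, -1.51 and -0.27, a difference of -1.30 (SE 0.32, adjusted p 0.00643). Array 4 labelled pregnant lies well above the other 3 for GINS3, and still below all 4 labelled non-pregnant.

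GINS2 was measured by 5 probes, all called lower, from -2.0 to -4.79. A pair of them overlaps by 30 bases, in capitals below, and is shown because probes that share that stretch gave unlike differences. The first maps to chr18:10887884-10887943, minus strand, and fell by 2.0 (SE 0.26). The second maps to chr18:10885255-10887913, a span of 2659 bases that crosses a gap between mapped pieces, and was well above background on no array labelled pregnant, which makes it at least 10.6-fold lower.
GINS2, first probe: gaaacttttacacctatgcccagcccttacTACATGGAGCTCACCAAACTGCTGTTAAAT
GINS2, second probe: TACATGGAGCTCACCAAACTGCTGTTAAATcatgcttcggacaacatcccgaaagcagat

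Among polymerases, primase, clamp, clamp loader, flap nuclease and ligase, 12 of 13 fell and POLA1 did not pass, with a median of -1.15. FEN1, which trims the flaps of Okazaki fragments, differed most. FEN1 read 5.74, 5.17, 5.01 and 4.79 against 1.49, 1.35, 1.39 and 1.32, a difference of -3.79 (SE 0.23, adjusted p 2.22e-06), with all arrays labelled pregnant far below the others. PCNA, the sliding clamp that FEN1, the polymerases and the ligase bind, read 5.12, 4.72, 4.71 and 4.38 against 2.60, 2.87, 2.79 and 2.61. PCNA fell by 2.01 (SE 0.20, adjusted p 3.95e-05), and all its 3 probes were called lower. LIG1, which seals the fragments, fell least of the members called lower, by 0.66 (SE 0.19, adjusted p 0.0157). Its call was lost without array 2 labelled pregnant (-0.60, adjusted p 0.0515), and the other 3 probes of LIG1 did not pass.

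All 4 subunits of the clamp loader among the members were lower. The loader sets PCNA on DNA. RFC4 fell by 1.48 (SE 0.18), RFC3 by 1.35 (SE 0.20), RFC2 by 0.95 (SE 0.18) and RFC5 by 0.81 (SE 0.19), each without overlap between groups. Both primase subunits, which lay down the RNA primers, fell close to 2-fold, PRIM1 by 0.93 (SE 0.21) and PRIM2 by 1.15 (SE 0.23), and neither pair of groups overlapped. The other probes of PRIM2, at -0.59 and -0.44, did not pass.

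The polymerases themselves were lower at POLE2, POLE and POLD1. POLE2, the second subunit of the leading strand polymerase, read 2.17, 2.0, 2.11 and 1.78 against -0.081, 0.020, -0.027 and -0.32, and fell by 2.12 (SE 0.18, adjusted p 1.30e-05). The groups lie far apart for POLE2, and both its probes, which share 46 bases, were called lower. POLE, the catalytic subunit, read -5.89, -5.33, -4.41 and -2.81 under the non-pregnant label and was well above background on no array labelled pregnant. Its spread within the non-pregnant label was wide, array 4 being the highest, and it was at least 3.35-fold lower on those labelled pregnant (adjusted p 0.0199). The measured difference was -1.88, and -1.28 without array 4 labelled non-pregnant, and both set signal against values near the floor. POLD1, the catalytic subunit of the lagging strand polymerase, fell by 0.92 (SE 0.21, adjusted p 0.00480), while its other probe stood at 0.05 (SE 0.45) and did not pass.

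POLA1, the catalytic subunit of the priming polymerase, read -0.89, -1.46, -1.03 and -0.20 under the non-pregnant label and 1.32, -2.78, -2.91 and -2.95 under the pregnant label. Array 1 labelled pregnant was the highest of all 8 and the other 3 were the lowest. The difference of -0.93 (SE 0.91) did not pass (adjusted p 0.397), and without array 1 labelled pregnant it was -1.98 (adjusted p 9.59e-04). A second probe of POLA1 did not share that high array. It read -4.66, -5.40, -5.84 and -4.65 under the non-pregnant label and was well above background on no array labelled pregnant, array 1 included. It was at least 2.47-fold lower, and its adjusted p of 0.00145 sets signal against values near the floor. Both lie on the minus strand of chromosome X, the brighter at chrX:72267642-72267701 and the dimmer at chrX:72446622-72446681. They are printed because they disagree on 1 array, the brighter by its first 30 bases.
POLA1, brighter probe: aatataccttgtgctgttgaaacaccacca
POLA1, dimmer probe: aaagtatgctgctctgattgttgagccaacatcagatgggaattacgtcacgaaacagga

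**Figure D3:**
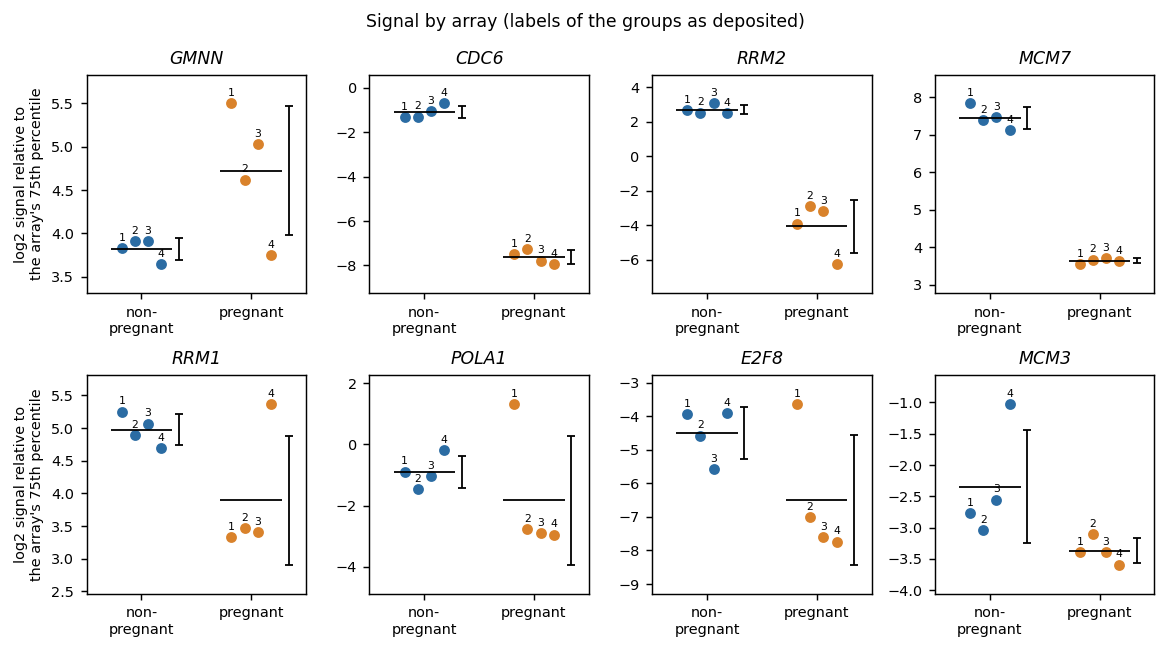
Log2 signal of 8 members on every array, numbered 1 to 4 within each label, with the group mean (line) and SD (bar); the scale differs between panels. CDC6, RRM2 and MCM7 separate completely, 3 of 4 arrays labelled pregnant lie above the rest for GMNN, array 4 stands alone for RRM1, array 1 for POLA1 and E2F8, and for MCM3 the high array is array 4 labelled non-pregnant.

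The enzymes that supply nucleotides fell for 4 of 5, with a median of -1.29. RRM2, the ribonucleotide reductase subunit made in S phase, read 2.66, 2.54, 3.06 and 2.51 under the non-pregnant label and -3.91, -2.91, -3.19 and -6.28 under the pregnant label, of which 3 were well above background. Its difference of -6.77 (SE 0.66, adjusted p 3.28e-05) was the most negative measured. Array 4 labelled pregnant, the one not above background, was the lowest of all, and without it RRM2 stood at -6.03. CDC6, known only as a bound, has no rank against it. RRM1, the large subunit of the same enzyme, read 5.25, 4.89, 5.07 and 4.70 against 3.33, 3.47, 3.41 and 5.37. Array 4 labelled pregnant was the highest of all 8 arrays for RRM1, while the other 3 lay below every array labelled non-pregnant. The RRM1 difference of -1.08 (SE 0.44) did not pass (adjusted p 0.0619), and without array 4 labelled pregnant it was -1.57 (adjusted p 2.04e-04). A second RRM1 probe, which shares 32 bases with the first, gave -1.10 (SE 0.44, adjusted p 0.0557). TK1, the thymidine kinase of the salvage route, read 4.60, 4.36, 3.61 and 4.25 against 1.81, 1.80, 1.89 and 2.09, and fell by 2.31 (SE 0.24, adjusted p 4.46e-05). DUT, which removes dUTP, fell by 1.29 (SE 0.24), and TYMS, which makes the thymidine nucleotide afresh, by 0.92 (SE 0.21), with no overlap for TK1, DUT or TYMS.

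RRM2 was lower at each of its 3 probes, with measured differences of -6.77, -8.66 and -8.80. The probe printed here lies at chr11:90265325-90265384 on the minus strand, 2033 bases upstream of the brightest along the transcript, and is shown because it had signal on every array under one label and on none under the other. It read 2.08, 1.77, 0.58 and 1.94 on the arrays labelled non-pregnant, was well above background on none labelled pregnant, and was at least 265-fold lower (adjusted p 3.94e-07).
RRM2: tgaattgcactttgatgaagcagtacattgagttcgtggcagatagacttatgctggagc

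CHAF1A and CHAF1B, the subunits of chromatin assembly factor 1 among the members, both fell. The factor places histones on new DNA at the clamp. CHAF1A read 2.28, 2.32, 2.53 and 2.67 against 0.23, 0.058, 0.20 and 0.74 and fell by 2.15 (SE 0.21, adjusted p 3.05e-05). CHAF1B read 0.99, 1.01, 0.99 and 0.87 against 0.0093, -0.67, -0.60 and -1.35 and fell by 1.62 (SE 0.27, adjusted p 8.99e-04). The groups do not overlap for either, and the arrays labelled pregnant spread more for CHAF1B than those labelled non-pregnant (SD 0.55 against 0.067, n = 4).

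Cyclin E and E2F genes had the largest median of the roles, -3.96, with 3 of 4 lower. CCNE1, the cyclin that activates CDK2 at the start of S phase and in endocycles, read 2.0, 1.98, 1.75 and 1.93 against -3.27, -2.60, -2.55 and -3.29. Its difference was -4.84 (SE 0.23, adjusted p 7.02e-07). CCNE2, its paralog, read -0.83, -0.57, -1.0 and -0.88 against -3.36, -4.07, -4.11 and -4.02, a difference of -3.07 (SE 0.22, adjusted p 5.79e-06). The groups lie far apart for both cyclins, with array 1 labelled pregnant above the other 3 for CCNE2. E2F1, the activating factor, read 0.088, -0.53, -0.54 and -0.66 against -5.69, -6.52, -4.64 and -6.31, with 1 of 4 arrays labelled pregnant well above background. E2F1 fell by 5.38 (SE 0.40, adjusted p 7.19e-06) without overlap, and its other two probes, above background on no array labelled pregnant, were at least 2.23-fold and 3.89-fold lower. E2F8, an atypical repressor that acts in endocycling trophoblast, read -3.94, -4.57, -5.57 and -3.90 against -3.63, -7.00, -7.59 and -7.74. Array 1 labelled pregnant was the highest of all 8 for E2F8, and the only one of its group above background. The difference of -2.0 (SE 0.87) did not pass (adjusted p 0.0762). Without that array no array labelled pregnant was above background. The measured E2F8 difference was then -2.95 (adjusted p 7.83e-04), which sets signal against values near the floor.

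Different probes of a member mostly went the same way. The members have 96 probes, of which 90 were tested, and 73 of these were lower, 1 higher and 16 not called. Without the MCM3 probe on chromosome 9, 72 of 89 were lower. Some probes of MCM4, GINS2, POLE2, PRIM1, RRM1 and DUT overlap in sequence, so not all of these are separate sequences. Over all 25795 tested probes of named genes, 31.4% were lower and 28.1% higher. Of 29 members with several tested probes, 19 had every probe called lower, against 21.2% of 7569 such genes. Probes called in opposite directions occurred in none of the 29 and in 2.8% of the 7569. The median range between probes of a gene was 0.84. MCM7 had a second, dimmer probe at -1.38 (SE 0.64) that did not pass (adjusted p 0.0912), and MCM5 a dim probe at -0.20 (SE 0.55, adjusted p 0.766). Of the 40 members, 7 lie on cattle chromosome 18 in build Btau_3.1 (CDT1, ORC6, GINS2, GINS3, POLD1, LIG1 and CCNE1), against 5.27% of all genes tested.

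**Figure D4:**
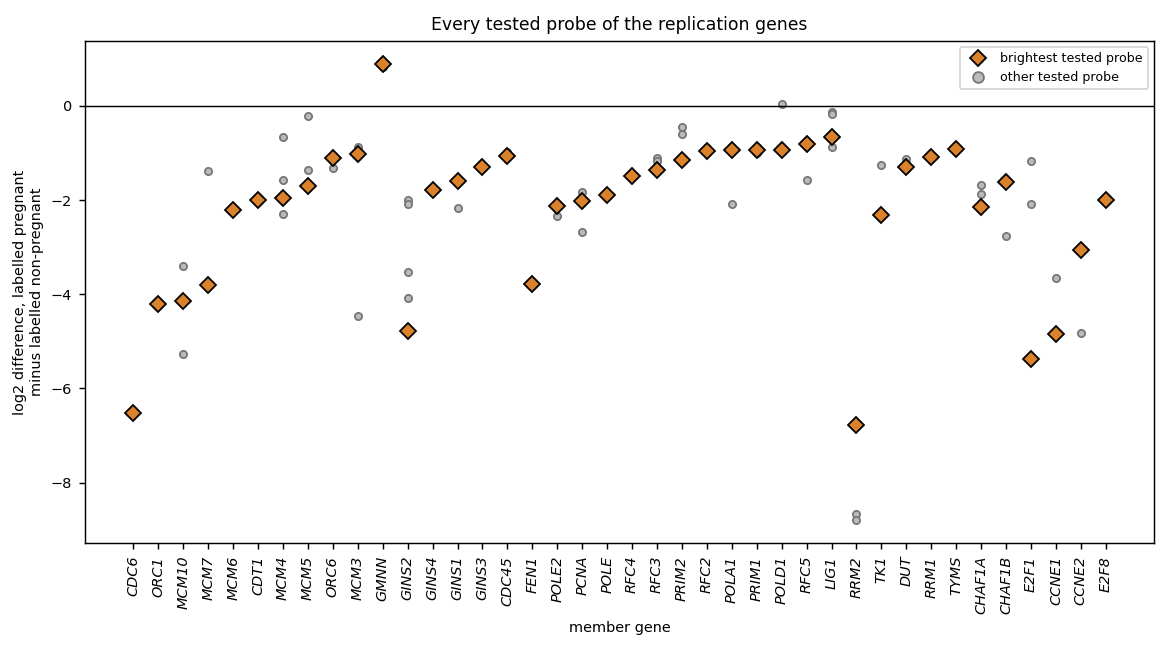
Difference (labelled pregnant minus labelled non-pregnant, log2) of each of the 90 tested probes of the members, with the brightest probe of each gene as a diamond. GMNN lies above 0 at both probes, RRM2 lies between -8.80 and -6.77, and the probes of GINS2, MCM7, E2F1 and MCM3 spread most.

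Other genes of the pathway were read beside the members from lists chosen with earlier results of these data known. Of 100 tested, 71 fell, 10 rose and 19 did not pass, with a median of -1.67. Over all 12899 genes tested, 33.0% were called lower and 29.7% higher, shares to be read beside each list below. Among 15 further genes of origin licensing and firing, 11 fell and 1 rose. ORC2, a core origin subunit, fell by 3.67, but only 2 of its 3 tested probes were called lower, and the smallest probe difference was -0.22. RECQL4, a helicase of origin firing, fell by 3.65 with 2 of 4 arrays labelled pregnant above background, and WDHD1, which tethers the priming polymerase, by 2.93. CDC7, the kinase that fires origins, rose by 0.69 (SE 0.22, adjusted p 0.0232), a call lost without array 1, 2 or 3 labelled pregnant (adjusted p 0.0575 to 0.0719) and on median or no scaling. That rise rests on the brighter of a pair of CDC7 probes: the other stood at -0.50 and did not pass, and their mean was 0.097 (adjusted p 0.680). CDK2, the partner of cyclin E, fell by 0.84 (SE 0.23, adjusted p 0.0112), a call lost without arrays 3 labelled non-pregnant and 4 labelled pregnant together (-0.72, adjusted p 0.0528). Of 18 further polymerase and fork genes 11 fell and 2 rose. POLA2, the second subunit beside POLA1, fell by 4.35, and DNA2, a flap nuclease, fell by 3.46 with 3 arrays labelled pregnant above background. CHTF18, of an alternative clamp loader, fell by 3.80, but only 1 of its 2 tested probes was called lower, and the other stood at -0.48. POLD4, a small subunit of the lagging strand polymerase, rose by 1.19 (adjusted p 7.99e-04, not called without scaling), and POLE4, a small subunit beside POLE, rose by 0.56 (adjusted p 0.0299), a call lost on median or no scaling and without array 2 or 4 labelled non-pregnant or array 2 or 3 labelled pregnant (adjusted p 0.0573 to 0.0894).

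Of 15 further nucleotide and chromatin genes, 9 fell and 3 rose. SAMHD1, which breaks down the building blocks of DNA, rose by 2.88 (SE 0.29, adjusted p 4.16e-05), and RRM2B, the reductase subunit used by cells that do not divide, by 1.28 (SE 0.20, adjusted p 6.11e-04). DNMT1, the maintenance methyltransferase, rose by 0.86 (adjusted p 0.00441, not called on median or no scaling), with 3 of its 4 tested probes called higher. UHRF1, which recruits DNMT1, fell by 3.71, and ASF1B, a histone chaperone, by 3.55.

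Genes by which an endocycle differs from a mitotic cycle were also lower on the arrays labelled pregnant. All 18 tested genes of G2/M entry and exit fell, with a median of -4.74 (33.0% of all genes were called lower). Of these, 16 fell at least 4-fold (11.9% of all genes). CDK1, the mitotic kinase, fell by 4.48 (SE 0.35), and FZR1, an activator of the anaphase-promoting complex, by 2.09 (SE 0.22). CCNB1, cyclin B1, fell by 5.54 (SE 0.96, adjusted p 0.00103), with array 4 labelled pregnant the only one of its group above background. Without that array CCNB1 stood at -6.65, and no array labelled pregnant was above background, so that value sets signal against values near the floor. CDC20, the other activator of that complex, fell by 7.29 (3 of 4 arrays labelled pregnant above background), ECT2, of cytokinesis, fell by 6.32 (2 of 4), and CDC25C, the phosphatase that activates CDK1, fell by 6.08 (1 of 4). FBXO5, the inhibitor of the anaphase-promoting complex, was above background on no array labelled pregnant and at least 10.2-fold lower. Of 11 genes of degradation that act on replication and the cyclins, 9 fell and 1 rose. CCNF fell by 6.87 (2 of 4 arrays labelled pregnant above background) and CKS2 by 5.26, and DTL, which directs the destruction of CDT1, was at least 27.5-fold lower. FBXW7, which directs the destruction of cyclin E, rose by 0.75 (SE 0.21, adjusted p 0.0139, not called on median or no scaling).

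Of 23 further E2F, RB and cyclin-CDK genes 13 fell and 3 rose, with a median of -1.33. LIN54 and MYBL2, of the complex that binds the promoters of late cell cycle genes, fell by 6.24 and 4.34, and CDK6, a partner of the D cyclins, by 5.26. CCNA2, the cyclin of S phase and G2, fell by 3.40 (SE 0.23). CDKN1C, the CDK inhibitor that starts endocycles in trophoblast giant cells of rodents, fell by 3.34 (SE 0.33, adjusted p 3.58e-05). CCND2 and CCND3, D-type cyclins, rose by 2.48 (SE 0.27) and 1.63 (SE 0.23), and RBL2, a relative of the retinoblastoma protein, by 1.07 (SE 0.21, not called without scaling).

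**Figure D5:**
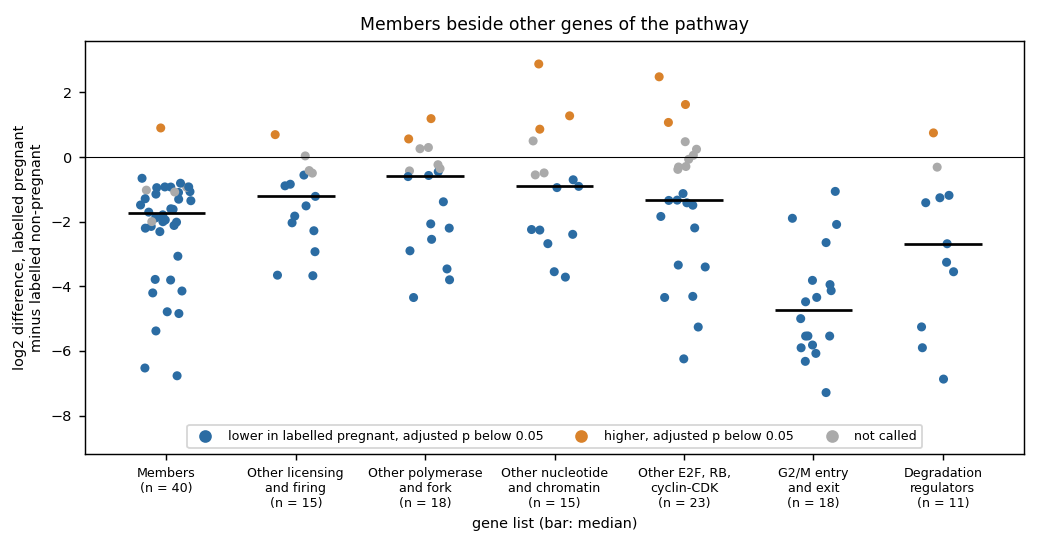
Difference of each tested gene (labelled pregnant minus labelled non-pregnant, log2) in the members and in 6 lists of other pathway genes, with each list's median as a bar and points coloured by call. The medians are -1.75 for the members and -4.74 for the genes of G2/M, where all 18 points lie below 0, and orange points above 0 occur in every list except that of G2/M.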

How the data were processed

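The files hold 1-colour scanner output of 8 arrays, in which the authors deposited spot intensity and quality flags from Agilent Feature Extraction 11.5.1.1 (protocol GE1_1105_Oct12), per the file headers. For each spot it gives the mean signal less a fitted spatial background surface and scaled for a multiplicative trend, checked on the files, with a surrogate floor for dim spots. A value table of log2 values deposited by the authors, already centred near 0 at the 75th percentile, served as an alternative. Its correlation with the scanner values was above 0.999 on each array, and its direction and scale follow them. Control spots (1319 per array) and 119 spots with an outlier flag were left out. No spot was saturated. Spots of a probe were averaged, giving 51282 probes, of which 10275 had several spots. Each array's 75th percentile of log2 values was subtracted. A probe was tested if at least 4 of 8 arrays flagged it well above background, with limma 3.58.1 in R 4.3.3 (lmFit, eBayes, no covariate), with Benjamini-Hochberg adjustment over all of them and a threshold of 0.05. The fit was also run on simulated data with known changes, which left out the scaling step and so does not test the choice of scaling.

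Probes were named by accession through RefSeq's gene table for ARS-UCD2.0 (28112, with 1770 through other accessions in the files), by symbol (5519) or synonym (159), or kept the file's name (15706). 16 pointed to several genes and were not named. Coordinates are those of the files, Btau_3.1. The members and all lists were chosen with earlier results of these data known. All members may be named, and of each other pathway list the 3 largest falls and up to 3 largest rises, with CDK1, CCNB1, CCNA2, CDK2, FZR1, FBXO5 and CDKN1C in any case. 1 gene so named is not reported here. Where a whole group lacked signal above background, the size of a difference is known only as a bound. Any measured difference printed for such a probe sets signal against values near the floor. Promoter and protein sequences were not used here, so the motif searches planned over them were not run. Alternatives were the background correction, scaling, filter, probe choice, deposited table, replicate block and leaving out arrays.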

Additional observations from a re-analysis of the deposited data

Results flagged for a closer look

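In 5 of the 80 groups of 4 arrays formed by the members, the highest or lowest array lay so far from the nearest other that the gap, as a share of the group's range, passed Dixon's critical value for 4 values. Chance gives this in about 1 in 20 groups. For POLA1, array 1 labelled pregnant read 1.32 while the other 3 lay between -2.95 and -2.78. For RRM1, array 4 labelled pregnant read 5.37 while the others lay between 3.33 and 3.47. For CCNE2, array 1 labelled pregnant read -3.36 and the others -4.11 to -4.02. CDT1 was lowest on array 1 labelled pregnant, at 0.39, against 0.52 to 0.54. ORC1 was highest on array 4 labelled non-pregnant, at -2.63, against -3.66 to -3.56.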

How the results depend on the processing

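No member changed direction under any of the 19 alternatives for which it had a value. Of the 35 members called lower, 31 kept the call in all, and LIG1, POLD1, POLE and PRIM1 lost it in some: POLE (-0.24, adjusted p 0.496) and PRIM1 (-0.34, adjusted p 0.131) with normexp background correction, POLE without arrays 3 labelled non-pregnant and 4 labelled pregnant together (adjusted p 0.0713), LIG1 (-0.26, adjusted p 0.257) with quantile normalization, and LIG1 and POLD1 (-0.46 and -0.44) as the mean of all probes. The median of the members was -1.40 with normexp, -1.58 with the percentile of the detected probes alone, -2.13 with median scaling, -2.23 without scaling, -1.52 with quantile normalization and -1.54 with probes required on all 8 arrays, which left 34 members. Median scaling and no scaling moved the median of all genes to -0.42 and -0.52, and relative to that median the members stood at -1.71 in both and in the setting reported. The share of calls that were lower was 52.7%, 65.4% with median scaling and 68.7% without scaling. The count of members called higher, 1 in the setting reported, was 0 with median scaling, without scaling and without a filter on dim probes. Leaving out each array in turn gave 34 to 37 members lower, 0 to 1 higher, a median of -1.84 to -1.61, and 7262 to 8263 genes called of 8088 with all arrays. With the replicate number as a block, 36 members were lower, E2F8 among them (adjusted p 0.0406), 1 was higher and the median was -1.75. The labels do not say that the replicate numbers pair samples, so they were not taken as pairs. Arrays of the same number deviated from their group means with correlations of 0.009 to 0.155, which alone cannot settle pairing. Signal near background limits CDC6, ORC1, POLE, E2F1, E2F8, GINS2 and RRM2 on the arrays labelled pregnant.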

Other observations

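Of the members, 22 had tested probes at least 500 bases apart along 1 transcript. For these, the spread of the 4 arrays labelled non-pregnant differed with the position of the probe. The median SD was 0.51 at the probe nearest the transcript's start and 0.27 at the probe nearest its end. Position was not separated from the brightness of the probe. For example, the upstream probe of MCM4 read -3.49 to -0.77 on these arrays, and the brightest MCM4 probe 4.55 to 5.18. Array 4 labelled non-pregnant minus array 1 had a median of 0.46 at the upstream probes, above 0 for 16 of 22, and -0.30 at the downstream probes, above 0 for 5 of 22. It reached 3.56 for the upstream probe of MCM7, 3.08 for MCM5, 2.72 for MCM4, 2.46 for TK1 and 2.14 for POLD1, where the downstream probes gave -0.72, -0.66, -0.91, -0.34 and -0.58. LIG1 went the other way, at -2.73 upstream. The median difference between the labels was -1.28 at the upstream and -1.59 at the downstream probes. These values concern the array labelled non-pregnant that was also highest for MCM3 and POLE. The labels say that reverse transcription was primed with oligo-dT, and the cause was not tested.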
